A study of Mus musculus with 10 samples.

Results

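Plasma cells are the antibody-secreting end stage of the B cell lineage. They are made when the transcription factors IRF4, BLIMP1 (encoded by Prdm1) and XBP1 take over from the factors that hold the mature B cell state, among them PAX5, BACH2 and BCL6, a repressor of Prdm1. Jchain encodes the joining chain, a small secreted protein that links IgM or IgA units into polymers and lets the polymeric immunoglobulin receptor carry them across epithelia. The 10 genes described here are Jchain and 9 genes of the plasma cell programme: the regulators Prdm1, Irf4, Xbp1, Ell2 and Pou2af1, the surface proteins Sdc1, Tnfrsf17 and Slamf7, and the endoplasmic reticulum (ER) protein gene Mzb1. They were picked by symbol, each is covered by 1 probe set, and they are 10 of the 19937 genes that have a probe set with a single symbol. The choice was made with results of these arrays in view. Jchain entered because of its level in floxed against wild-type arrays, so that comparison is given for all 10 genes as a description, and nothing is read from its calls.

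The samples were 10 Affymetrix Mouse Gene 1.0 ST arrays of B220+CD22+ B cells purified by FACS from spleens of CBAxC57BL/6J mice. Cells outside this gate were not measured, so the arrays describe plasma cell genes within sorted B cells only. In 4 delta arrays, labelled Sca1-Bcl6(delta), a loxP-flanked Bcl6-IRES-eGFP transgene in a Ly6 (Sca1) vector had been exposed to mb1-Cre, a recombinase driven from the Cd79a locus in B lineage cells. In 3 floxed arrays, labelled Sca1-Bcl6(floxed), the transgene was present without Cre, and 3 wild-type arrays carried neither. The labels give no ages, do not say which of 2 transgenic lines an array came from, and do not say whether each array is a separate animal, so the p-values measure the spread between these samples. No group carried mb1-Cre alone.

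Array medians lay between 139 and 145 intensity units, and arrays correlated across genes at 0.989 to 0.997. Of the 10 B cell markers, 9 were measured, Cd79a, Cd79b, Cd22 and Ms4a1 among them, at log2 levels of 11.43 to 13.86 in every array. In delta against wild-type 1 of the 9 (Cd79a) was called lower, where 0.0752% of all genes were called in either direction. Cd79a is the locus from which mb1-Cre is driven, and only delta arrays had Cre, so its level cannot be told apart from the Cre allele. Xist and Y-linked genes gave a male pattern in 1 of 4 delta arrays (delta 1), 3 of 3 floxed arrays and 0 of 3 wild-type arrays. Sex and genotype thus cannot be told apart in floxed against wild-type. In delta against floxed, delta 1 alone shared the sex pattern of the floxed arrays, so sex was nearly confounded with genotype there too. The sex covariate used below is therefore set by delta 1 against the other delta arrays, and cannot separate sex from that array. In bulk RNA of this kind, fewer cells of a type and less RNA per cell cannot be told apart. The values carry no detection call, so a low flat probe set cannot be separated from background, and the number of arrays limits the precision.

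Jchain stood at 3 separate mean levels in the 3 groups, highest in floxed, intermediate in delta and lowest in wild-type arrays. Its probe set, 10531126, lies on chromosome 5, where RefSeq places the gene at chr5:88519809-88527897 (GRCm38.p6). The log2 RMA intensity of Jchain was 7.24, 7.51, 7.22 and 7.10 in delta arrays 1 to 4, 8.43, 8.25 and 8.34 in floxed arrays 1 to 3, and 7.17, 6.35 and 6.58 in wild-type arrays 1 to 3. All 3 floxed arrays lay above all 7 others, while wild-type 1 lay within the range of the delta arrays. On the linear scale Jchain averaged 155 ± 19.0 intensity units in delta (SD, n = 4), 325 ± 20.1 in floxed (SD, n = 3) and 107 ± 32.6 in wild-type arrays (SD, n = 3). The spread of wild-type arrays was the widest of the 3 groups.

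The promoter of Jchain is shown because Jchain is the gene of the 10 whose level varied most over the arrays. The stretch runs over the 250 bases before the transcription start, on the minus strand of chr5:88527898-88528147 (RefSeq, GRCm38.p6), written 5′ to 3′, with capitals on the match to the XBP1 core.
Jchain: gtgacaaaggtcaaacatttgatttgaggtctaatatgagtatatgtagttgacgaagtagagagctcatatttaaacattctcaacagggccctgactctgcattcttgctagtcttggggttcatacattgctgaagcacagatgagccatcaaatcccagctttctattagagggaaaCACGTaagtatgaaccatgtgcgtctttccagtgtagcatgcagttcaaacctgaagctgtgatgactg
Promoters of 9 of the 10 genes were in the RefSeq table, and 3 motifs tied to the regulators were searched on both strands of the same 250 bases. The core ACGTG, found in XBP1 binding sites, matched once in Jchain, on the strand opposite to the one printed. On the printed strand the match reads CACGT and starts at base -69. The core was present in 3 of the 9 promoters (Jchain, Pou2af1 and Slamf7), against 16.6% of 27025 promoters. The core GAAAG of PRDM1 sites was present in 4 of the 9 (Jchain, Irf4, Tnfrsf17 and Slamf7), against 51.4% of all promoters. The octamer ATGCAAAT, to which the POU2AF1 partner proteins bind, was in 0 of the 9 and in 1.61% of all. These matches are descriptions of letters and show no binding.

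In floxed against wild-type, Jchain was 3.12-fold higher, a log2 difference of 1.64 (SE 0.17, 95% confidence interval 1.26 to 2.02). The log2 differences of the 9 other genes ran from -0.51 to 0.22 with a median of 0.05. The median over all 19937 genes was -0.02. At an adjusted p under 0.05, 1 of the 10 genes was higher (Jchain) and 1 was lower (Sdc1), where 0.391% of all genes were called higher and 0.161% lower. These counts use the comparison that led to the choice of Jchain, and nothing is read from them.

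Delta against floxed asked what differed once the transgene had been exposed to Cre. Sex pattern differed as well, being male in 1 of 4 delta and 3 of 3 floxed arrays. Jchain was 2.11-fold lower in delta, at -1.07 on the log2 scale (SE 0.16, 95% confidence interval -1.43 to -0.72), and all 4 delta arrays lay below all 3 floxed arrays. The limma adjusted p was 0.123, so Jchain did not pass the threshold of 0.05 over all genes. Jchain did pass when wild-type replicate 1 was left out (adjusted p = 0.00628) and when delta and floxed arrays were fitted alone (adjusted p = 0.0123). Neither change touches a delta or floxed array, so the size is fixed and only the estimate of the shared spread changes. Under the other alternatives Jchain did not pass, with adjusted p as high as 0.468 (without delta replicate 3). With the sex pattern as a covariate, which delta 1 sets, the difference was -1.10. In delta against wild-type, Jchain was 1.48-fold higher, at 0.57 (SE 0.16, 95% confidence interval 0.21 to 0.92, limma adjusted p = 0.341), and wild-type 1 overlapped the delta arrays. Without wild-type replicate 1 Jchain was at 0.80 in delta against wild-type (adjusted p = 0.129). All 3 comparisons share arrays in pairs, and the floxed and wild-type arrays are those in which Jchain was noticed.

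None of the 10 genes was called by limma in either comparison of delta arrays. In delta against wild-type 0 of 10 passed, where 15 of all genes (0.0752%) passed, and 4 of 10 had an unadjusted p under 0.05, as did 7.89% of all genes. In delta against floxed 0 of 10 passed, where 1 gene of all (0.00502%) passed, and 3 of 10 had an unadjusted p under 0.05, as did 6.42% of all genes. The log2 differences of the 9 genes other than Jchain ran from -0.37 to 0.38 in delta against wild-type, with a median of -0.03, and from -0.26 to 0.21 in delta against floxed, with a median of -0.06.

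**Figure D1:**
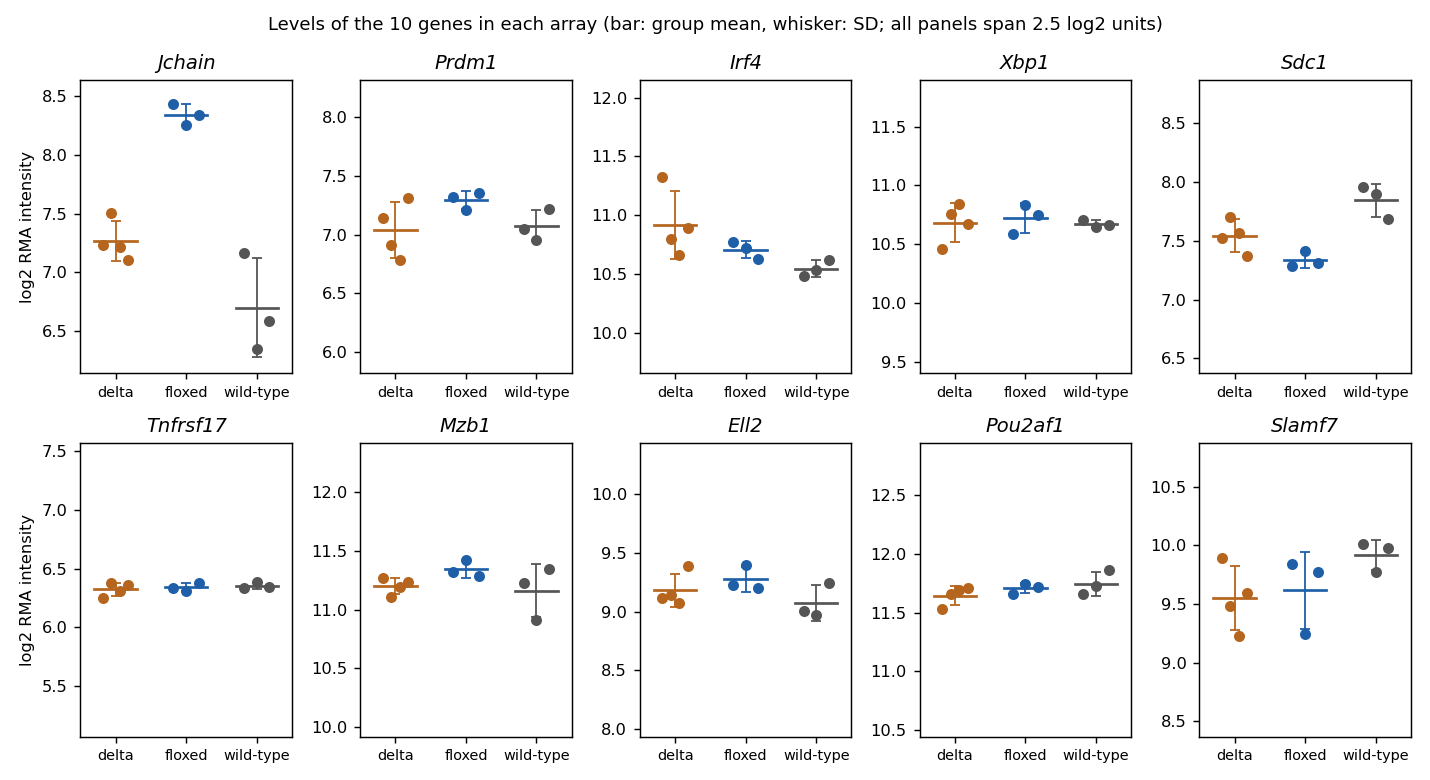
Log2 RMA intensity of the 10 genes (vertical axis) in every array of the delta, floxed and wild-type groups (horizontal axis), with the group mean as a bar and the SD as a whisker; all panels span the same number of log2 units. Jchain has its 3 floxed arrays at 8.25 to 8.43, above all others, while the remaining panels are nearly flat apart from Sdc1, Irf4 and Slamf7.

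The 3 transcription factors that drive the plasma cell state showed smaller differences than Jchain. Irf4, which raises Prdm1 and is needed for plasma cells, had log2 levels of 11.33, 10.79, 10.66 and 10.89 in delta arrays, 10.77, 10.72 and 10.63 in floxed arrays, and 10.48, 10.53 and 10.62 in wild-type arrays. Both transgenic groups lay wholly above wild-type, by a narrow margin, and delta 1 was the highest array. In delta against wild-type Irf4 was at 0.38 (SE 0.13, limma adjusted p = 0.455), and without delta replicate 1 it was at 0.24 (adjusted p = 0.563). Groups that did not overlap, with delta higher, were found for 1 of the 10 genes (Irf4) and for 3.75% of all genes, and groups with delta lower for 0 of the 10 and 5.5% of all. In floxed against wild-type the groups did not overlap, with floxed higher, for 2 of the 10 genes (Jchain and Irf4) and for 7.6% of all genes. Irf4 was at 0.16 there (SE 0.14), and this difference turned to -0.38 with the sex pattern as a covariate. That covariate is set by delta 1, the highest array for Irf4.

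Prdm1 encodes BLIMP1, the repressor that shuts down the B cell programme. Its log2 levels were 7.14, 6.91, 6.78 and 7.31 in delta arrays, 7.32, 7.21 and 7.35 in floxed arrays, and 7.05, 6.96 and 7.22 in wild-type arrays. The 3 groups overlapped pairwise, with differences of -0.04 in delta against wild-type (limma adjusted p = 0.972), -0.26 in delta against floxed (limma adjusted p = 0.775) and 0.22 in floxed against wild-type (SE 0.12). The difference in floxed against wild-type was 0.077 with the sex pattern, which delta 1 sets, and 0.088 with the T cell marker mean. That in delta against floxed was -0.11 with the T cell marker mean.

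Xbp1, the factor of the unfolded protein response that expands the secretory apparatus, had log2 levels of 10.46, 10.75, 10.84 and 10.67 in delta arrays, 10.58, 10.83 and 10.75 in floxed arrays, and 10.70, 10.64 and 10.66 in wild-type arrays. Its groups overlapped, and its differences were 0.01 in delta against wild-type, -0.04 in delta against floxed and 0.05 in floxed against wild-type, with confidence intervals that together ran from -0.24 to 0.27. The probe set does not separate spliced from unspliced Xbp1 RNA.

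Ell2 and Pou2af1 act on immunoglobulin transcripts, Ell2 as an elongation factor that favours the secreted form and Pou2af1 as a coactivator of octamer-binding proteins. Ell2 lay at 9.08 to 9.39 in delta, 9.21 to 9.40 in floxed and 8.97 to 9.25 in wild-type arrays. It was at 0.11 in delta against wild-type, -0.09 in delta against floxed and 0.20 in floxed against wild-type. Pou2af1 lay at 11.53 to 11.71 in delta, 11.66 to 11.74 in floxed and 11.66 to 11.86 in wild-type arrays, and its differences were -0.10, -0.06 and -0.04 in the same order of comparisons. Both genes overlapped between all pairs of groups.

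Sdc1 ran in the opposite order to Jchain. It encodes syndecan-1 (CD138), the surface proteoglycan by which plasma cells are sorted. Its log2 levels were 7.53, 7.71, 7.57 and 7.37 in delta arrays, 7.29, 7.42 and 7.31 in floxed arrays, and 7.95, 7.89 and 7.68 in wild-type arrays. All floxed arrays lay below all wild-type arrays, at a difference of -0.51 (SE 0.09, 95% confidence interval -0.71 to -0.30), and the delta arrays spanned the gap and overlapped both. Sdc1 was the 1 gene of the 10 with floxed wholly below wild-type, as were 9.13% of all genes. Sdc1 in delta against wild-type was at -0.30 (SE 0.09, limma adjusted p = 0.369), and in delta against floxed it was at 0.20 (SE 0.09, limma adjusted p = 0.771). In delta 1, of male pattern, Sdc1 was within the range of the other delta arrays. This is 1 array, and the part of sex in the level of Sdc1 was not tested.

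Slamf7, a surface receptor of plasma cells that NK cells and other leukocytes also carry, lay at 9.89, 9.48, 9.23 and 9.60 in delta arrays, 9.84, 9.24 and 9.77 in floxed arrays, and 10.01, 9.77 and 9.98 in wild-type arrays. Its highest values were in wild-type, yet all pairs of groups overlapped. It was at -0.37 in delta against wild-type (SE 0.16, limma adjusted p = 0.621) and at -0.30 in floxed against wild-type (SE 0.17). The difference in floxed against wild-type ran from -0.41 to -0.11 when single arrays were left out, nearest to 0 without floxed replicate 2. It was -0.76 with the sex pattern, which delta 1 sets, in the fit. The summed intensity of the 12 NK cell markers was by contrast higher in floxed than in wild-type arrays, at 10.18 to 10.52 against 9.48 to 9.70 on the log2 scale, and its part in Slamf7 was not tested.

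Tnfrsf17 encodes BCMA, the receptor for APRIL and BAFF that supports long-lived plasma cells. It was the flattest of the 10 genes, at 6.25 to 6.38 in delta, 6.31 to 6.37 in floxed and 6.34 to 6.38 in wild-type arrays, a range of 0.13 over all 10 arrays. The range of Jchain over the same arrays was 2.09, and those of the other 8 genes lay between 0.33 (Pou2af1) and 0.85 (Irf4). Mzb1, an ER protein that assists IgM assembly and is also abundant in marginal zone B cells, lay at 11.10 to 11.27 in delta, 11.29 to 11.42 in floxed and 10.91 to 11.34 in wild-type arrays. Delta lay wholly below floxed for 2 of the 10 genes, Jchain and Mzb1, as it did for 3.61% of all genes, and wholly above it for 0 of the 10 and 3.36% of all. The difference of Mzb1 in delta against floxed was -0.14 (limma adjusted p = 0.847).

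**Figure D2:**
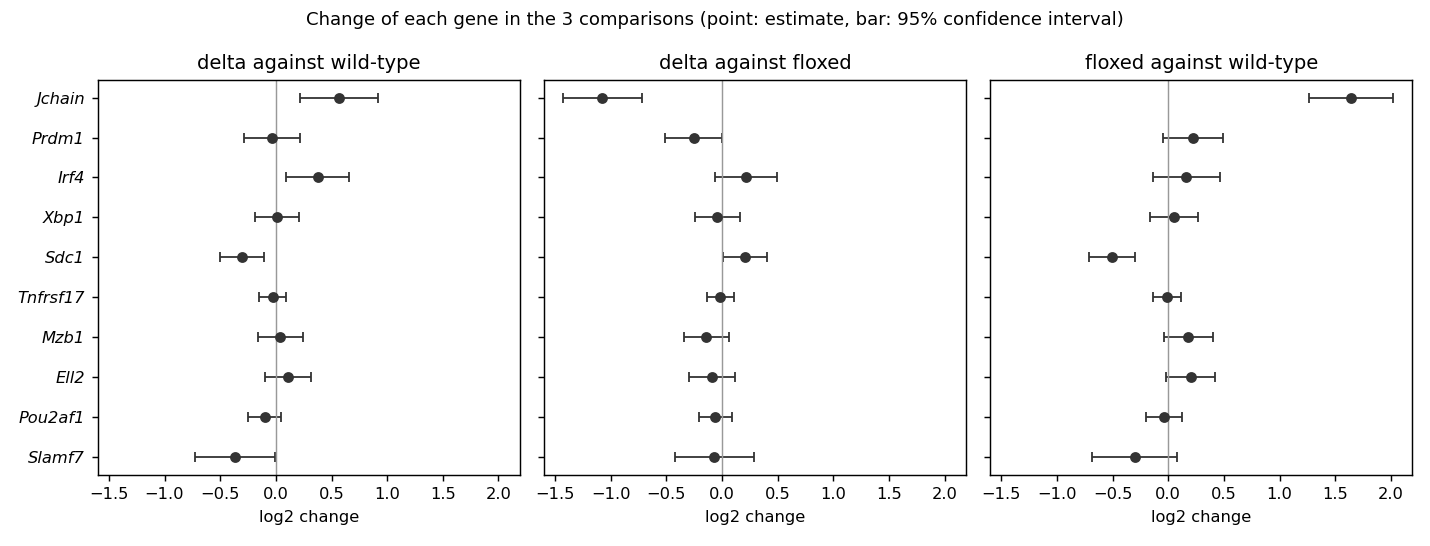
Log2 change of each of the 10 genes (horizontal axis) in delta against wild-type, delta against floxed and floxed against wild-type, with 95% confidence intervals from limma as bars. Jchain stands at 0.57, -1.07 and 1.64, and the other 9 genes in floxed against wild-type run from -0.51 to 0.22.

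Jchain was then set beside the other 9 genes within each array. The level of each gene was expressed relative to its own wild-type mean, and the median of the 9 was subtracted from the value of Jchain. This excess was 0.57, 0.86, 0.57 and 0.40 log2 units in delta arrays, 1.75, 1.42 and 1.56 in floxed arrays, and 0.49, -0.33 and -0.19 in wild-type arrays. The median of the 9 stayed between -0.06 and 0.13 in every array, so the excess follows Jchain itself. In all 3 floxed arrays Jchain lay above each of the 9 genes, as it did in 3 of 4 delta arrays, the exception being delta 1, where Irf4 was higher. Wild-type arrays differed among themselves, with Jchain above all 9 genes in wild-type 1, above 0 in wild-type 2 and above 1 in wild-type 3. No test was made of this score, since the genes were chosen with the results known.

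**Figure D3:**
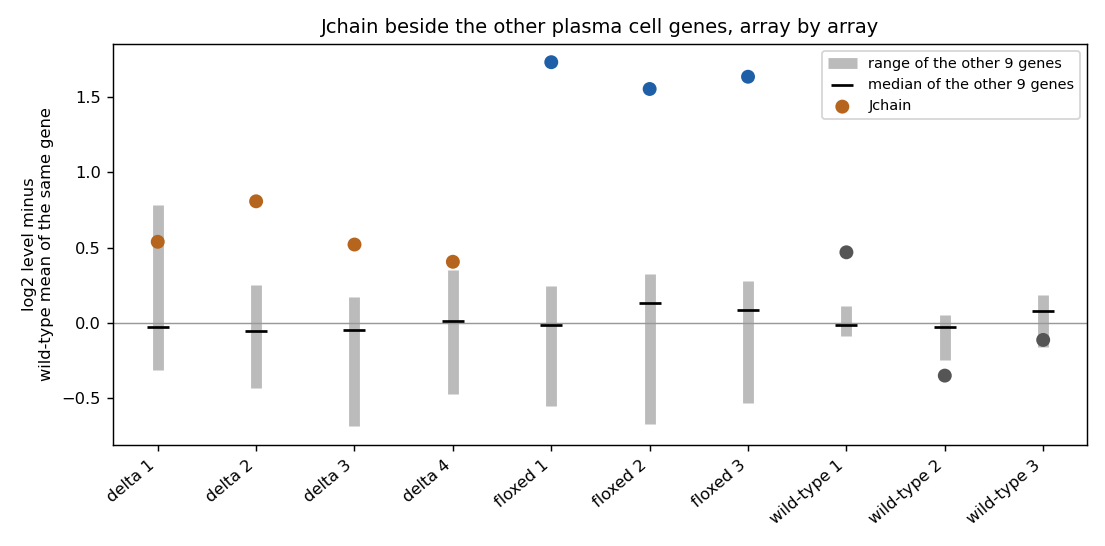
Log2 level minus the wild-type mean of the same gene (vertical axis) in each array (horizontal axis), with Jchain as a point coloured by group, the range of the other 9 genes as a grey bar and their median as a dash. The Jchain points lie at 1.56 to 1.73 in floxed arrays, where the highest of the other 9 genes is at 0.32.

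The genes whose pattern over the 10 arrays was closest to that of Jchain were not plasma cell regulators. Closeness was measured as the root mean square difference between log2 levels, each gene centred on its own mean over the 10 arrays, and a gene that never varied would be at 0.68 from Jchain. Predicted genes and clones with Gm, LOC or Rik names were left out of the closest genes, though not out of the ranks. The 6 closest were Syt11 (0.36), Anxa2 (0.40), Abcb1b (0.40), H2-Eb2 (0.41), Havcr1 (0.42) and Zdhhc2 (0.43). Syt11 encodes a synaptotagmin of vesicle traffic, Anxa2 a membrane-binding annexin, Abcb1b a drug efflux pump and Havcr1 the receptor TIM-1, which marks regulatory B cells. H2-Eb2 is an MHC class II beta chain gene and Zdhhc2 encodes a palmitoyltransferase.

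Syt11 lay at 7.89 to 8.43 in delta, 8.67 to 9.11 in floxed and 7.47 to 7.62 in wild-type arrays, 3 ranges that did not overlap. Anxa2 likewise lay at 7.05 to 7.42 in delta, 7.52 to 7.61 in floxed and 6.44 to 6.61 in wild-type arrays. Both genes were picked for their likeness to Jchain in these same arrays, so nothing is read from the separation. Of all genes, 7.6% had floxed wholly above wild-type, 3.75% had delta wholly above wild-type and 3.61% had delta wholly below floxed. Of the 9 plasma cell genes the closest to Jchain was Mzb1, at 0.61, which placed it 995th of 19936 genes, followed by Prdm1 at 0.62 and Ell2 at 0.63. Sdc1 was the farthest, at 0.86 and 19712th. Likeness of pattern over 3 groups is a description and carries no test.

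The neighbours of Jchain on chromosome 5 did not share its pattern. The 3 measured genes at lower coordinates, Amtn, Ambn and Enam, are enamel matrix genes, and the 3 at higher coordinates are Utp3, Rufy3 and Grsf1. Their differences in floxed against wild-type ran from -0.22 (Ambn) to 0.27 (Rufy3), with limma adjusted p of 0.269 to 0.998. In delta against floxed they ran from -0.12 (Grsf1) to 0.10 (Ambn).

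**Figure D4:**
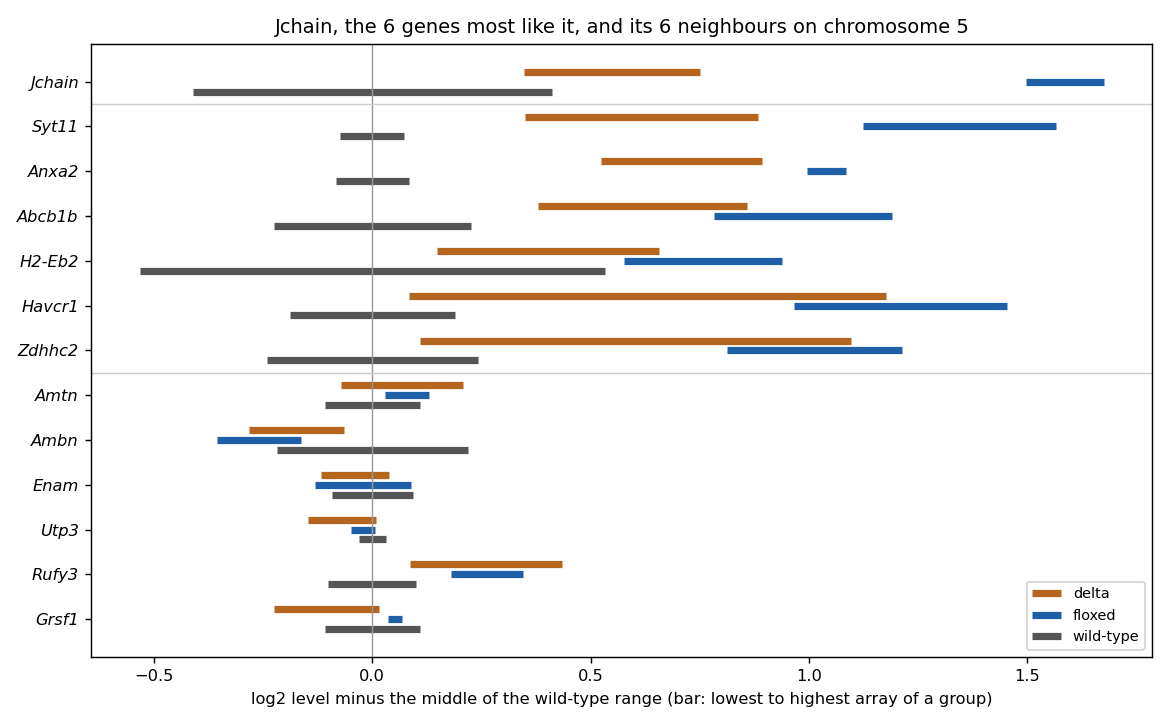
Span from the lowest to the highest array of each group, as log2 level minus the middle of the wild-type range (horizontal axis), for Jchain, the 6 genes closest to it in pattern and its 6 measured neighbours on chromosome 5 (rows). Floxed spans lie farthest right for Jchain and Syt11, and the neighbours stay near 0.

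Of the wider secretory programme, 35 genes of ER folding and export were listed and all 35 were measured. None passed the threshold in any comparison, against 110 of all genes (0.552%) in floxed against wild-type. At an unadjusted p under 0.05 were 5 of the 35 in delta against wild-type (7.89% of all genes), 3 in delta against floxed (6.42%) and 10 in floxed against wild-type (12.8%). Differences were small, and within each comparison most had the same sign. Of the 35, 26 were above 0 in delta against wild-type with a median of 0.09, 6 were above 0 in delta against floxed with a median of -0.08, and 31 were above 0 in floxed against wild-type with a median of 0.14, beside medians over all genes of -0.01, 0.005 and -0.02. The 2 comparisons with wild-type share those arrays, as the 2 with delta and the 2 with floxed share theirs.

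Hspa5, the ER chaperone BiP, had log2 levels of 12.21, 12.25, 12.32 and 12.33 in delta arrays, 12.23, 12.45 and 12.23 in floxed arrays, and 12.05, 11.93 and 12.00 in wild-type arrays. All transgenic arrays lay above all wild-type arrays, at 0.28 in delta (limma adjusted p = 0.219) and 0.31 in floxed (limma adjusted p = 0.0963). Of all genes, 3.75% had delta and 7.6% had floxed wholly above wild-type. Derl3, an ER degradation gene induced by XBP1, was at 0.35 in floxed against wild-type (limma adjusted p = 0.113).

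Among 27 further genes used to describe plasma cells, 25 were measured, and 1 rose in floxed against wild-type while 24 did not pass. Of all genes, 0.391% were called higher there. At an unadjusted p under 0.05 were 5 of the 25 in delta against wild-type (7.89% of all genes), 6 in delta against floxed (6.42%) and 9 in floxed against wild-type (12.8%). None passed in delta against wild-type or delta against floxed, and the list medians were 0.03, 0.02 and 0.06 in delta against wild-type, delta against floxed and floxed against wild-type. The gene that rose was Fcrl5, an Fc receptor-like protein of plasma, marginal zone and B1 cells. Its log2 levels were 10.22, 10.29, 10.41 and 10.96 in delta arrays, 10.72, 10.86 and 10.90 in floxed arrays, and 9.58, 9.65 and 10.05 in wild-type arrays. The rise was 1.07 (SE 0.18, limma adjusted p = 0.0282). Fcrl5 lost the call without any 1 of the 3 floxed arrays, without wild-type replicate 1 or 2, and with the T cell marker mean or the sex pattern in the fit, with adjusted p of 0.0594 to 0.304 and changes of 0.91 to 1.40.

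Tent5c, a poly(A) polymerase that stabilises immunoglobulin transcripts in plasma cells, had the largest difference of this list and was chosen after its values were seen. It lay at 8.83, 8.74, 8.60 and 9.98 in delta arrays, 10.08, 10.18 and 9.73 in floxed arrays, and 7.94, 8.26 and 9.02 in wild-type arrays. The difference in floxed against wild-type was 1.59 (SE 0.34, limma adjusted p = 0.0694). Delta 4 lay within the floxed range, and the other 3 delta arrays lay within the wild-type range.

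Factors that hold the B cell state did not pass in any comparison, with 0 of 14 measured genes called in each. At an unadjusted p under 0.05 were 4 of the 14 in delta against wild-type (7.89% of all genes), 1 in delta against floxed (6.42%) and 3 in floxed against wild-type (12.8%). Pax5, which represses Jchain in mature B cells, lay at 12.49 to 12.63 in delta, 12.48 to 12.61 in floxed and 12.49 to 12.70 in wild-type arrays. Its difference in floxed against wild-type was -0.08, and all groups overlapped. Bach2, a repressor of Prdm1, was at 11.32 to 11.54 in delta, 11.14 to 11.27 in floxed and 11.07 to 11.49 in wild-type arrays.

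Bcl6 itself, the gene that the transgene carries, was at 9.56 to 9.83 in delta, 9.80 to 9.96 in floxed and 9.80 to 10.48 in wild-type arrays. It was not higher in transgenic groups, with -0.35 in delta against wild-type (limma adjusted p = 0.578) and -0.17 in floxed against wild-type (limma adjusted p = 0.688). Wild-type 1, the wild-type array with the most Jchain, was also the one at 10.48 for Bcl6. Zbtb32, a repressor that limits B cell responses, was at 0.96 in floxed against wild-type (limma adjusted p = 0.0634), and Irf8 was at 0.32 (limma adjusted p = 0.0684).

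**Figure D5:**
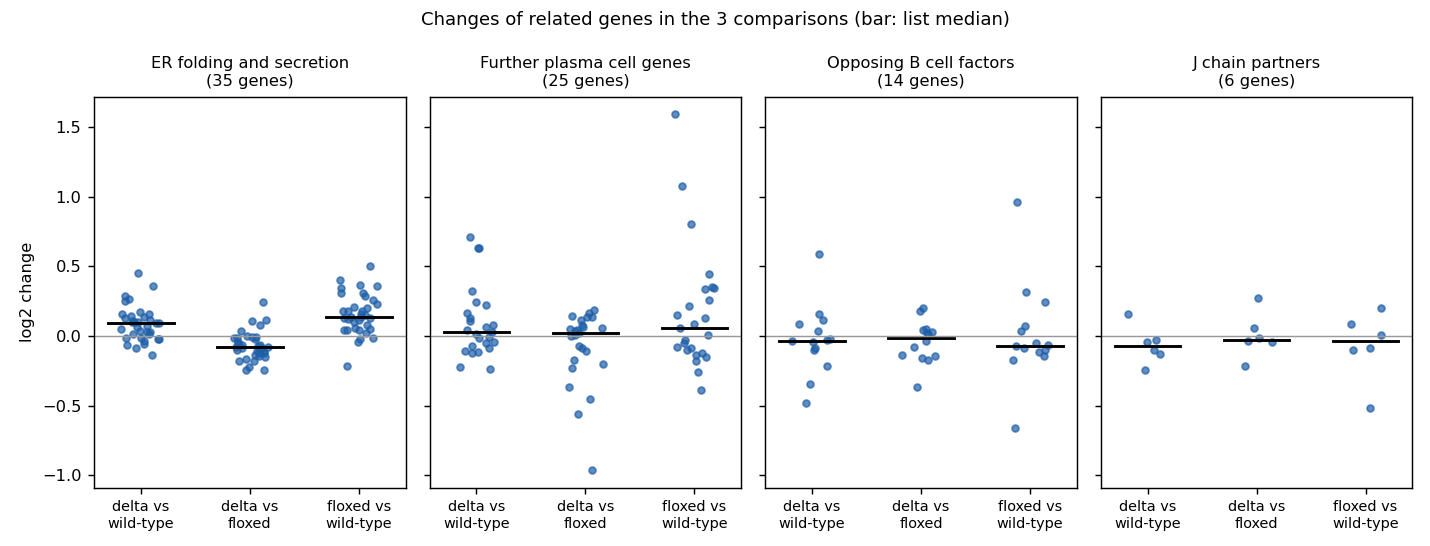
Log2 change (vertical axis) of each measured gene of 4 related lists in delta against wild-type, delta against floxed and floxed against wild-type (horizontal axis), with the list median as a bar. The ER genes have medians of 0.09, -0.08 and 0.14, and Tent5c at 1.59 and Fcrl5 at 1.07 are the highest points among the further plasma cell genes.

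The proteins that bind the joining chain or carry its products were also compared, with 6 of 11 listed genes measured. None of Pigr, Fcmr, Fcamr, Cd5l, Ighm and Igha passed in any comparison, and 1 had an unadjusted p under 0.05, in floxed against wild-type (12.8% of all genes). Igha, the heavy chain of IgA, lay at 11.63 to 11.88 in delta, 10.86 to 11.90 in floxed and 11.94 to 12.05 in wild-type arrays. Wild-type arrays were thus above all others for Igha, and floxed 2 was the lowest array. Of all genes, 5.5% had delta and 9.13% had floxed wholly below wild-type. The difference of Igha was -0.24 in delta against wild-type (limma adjusted p = 0.831) and -0.51 in floxed against wild-type (limma adjusted p = 0.306). Fcmr, a receptor for the Fc part of IgM, was at -0.10 in delta against wild-type (limma adjusted p = 0.759) and -0.08 in floxed against wild-type (limma adjusted p = 0.620).

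Markers of other cells moved with some of these groups. The log2 of the summed intensity of 12 NK cell markers ran from 9.55 to 10.23 in delta, 10.18 to 10.52 in floxed and 9.48 to 9.70 in wild-type arrays, and that of 8 erythroid markers from 10.44 to 11.39 in delta, 11.44 to 11.86 in floxed and 10.78 to 11.42 in wild-type arrays. For 14 T cell markers it ran from 12.01 to 12.31 in delta, 12.12 to 12.31 in floxed and 12.03 to 12.15 in wild-type arrays, and for 14 myeloid markers from 10.97 to 11.67 in delta, 11.16 to 11.42 in floxed and 10.77 to 10.88 in wild-type arrays. The 6 plasmacytoid dendritic cell markers stayed at 11.23 to 11.47 in delta, 11.31 to 11.38 in floxed and 11.27 to 11.36 in wild-type arrays. None of the markers of these 5 cell types passed in any comparison.

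Of 13 markers of marginal zone and B1 B cells, 2 were called higher in floxed against wild-type, where 0.391% of all genes were. Their mean log2 level was 9.22 to 9.66 in delta, 9.51 to 9.71 in floxed and 9.04 to 9.38 in wild-type arrays, and their median differences were -0.25 in delta against floxed and 0.29 in floxed against wild-type. The log2 of their summed intensity was 13.86 to 14.09 in delta, 14.10 to 14.15 in floxed and 13.80 to 14.22 in wild-type arrays. In floxed 2, where Jchain was 1.56 above wild-type, marker means differed between cell types. Relative to wild-type, T cell markers were at -0.02 and plasmacytoid dendritic cell markers at -0.0014. Erythroid markers were at 0.51, marginal zone and B1 markers at 0.41, myeloid markers at 0.19 and NK cell markers at 0.14. T and NK cell markers were higher in the other floxed arrays. T cell markers were at 0.61 in floxed 1 and 0.43 in floxed 3, and NK cell markers at 0.54 and 0.48. When the T cell marker mean of each array entered the fit, the difference of Jchain in floxed against wild-type was 1.77. In delta 1, of male pattern, Jchain was at 7.24, between the other delta arrays at 7.10 to 7.51. With the sex pattern as a covariate, which delta 1 sets, the difference of Jchain in floxed against wild-type was 1.68. Jchain was then not among the 2 genes called of all. The part of sex, which rests here on delta 1 alone, in the level of Jchain was not tested. Nor was that of T, NK, erythroid, myeloid and marginal zone cells.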

How the data were processed

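RMA intensity was measured for 34760 probe sets on 10 arrays. The deposited intensity values are on a linear scale, from 4.46 to 26808, and were made by the authors with RMA, per the submitters' processing notes; the sources used here name no version, software or genome build for it. RMA corrects background, normalizes between arrays and shrinks small differences of dim probe sets. Log2 was taken. Of the probe sets, 21640 had 1 gene symbol in the platform annotation, and for genes with several the brightest was kept, which left 19937 genes.

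Differences came from limma 3.58.1 in R 4.3.3 (lmFit with a mean for each of 3 groups over all 10 arrays, then eBayes), two-sided, with Benjamini-Hochberg adjustment over all genes and a threshold of 0.05. The script was tested on simulated data. The 10 genes, the related lists and the marker lists were chosen with earlier results of these data known. Genes were named by a written rule: the 10 genes, Bcl6, Pax5 and Bach2, the 6 genes closest to Jchain in pattern, its 3 measured neighbours on each side, and per list up to 4 genes past the threshold or else the 2 smallest p; Tent5c lies outside it. Gm, LOC and Rik names were left out of the 6 closest genes. An array had a male pattern when the mean of Eif2s3y, Kdm5d and Uty lay above Xist. Other normalizations, filters, gene units, priors, weights, covariates, a replicate block and the removal of single arrays were tried. Promoter letters are from RefSeq (GRCm38.p6).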

Additional observations from a re-analysis of the deposited data

Results flagged for a closer look

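Among 34 values examined in the 4 delta arrays, 2 genes had delta 4 far from the other 3 arrays. Chance sets about 1 in 20 such groups apart, so 2 of 34 is near that rate. Havcr1, one of the genes closest to Jchain in pattern, was at a log2 level of 8.10 in delta 4 and at 7.01 to 7.18 in the other delta arrays. Tent5c, which was examined after its values had been seen, was at 9.98 in delta 4 and at 8.60 to 8.83 in the others. Jchain itself was lowest in delta 4, at 7.10. Delta 4 was also the delta array with the highest marker means for several cell types, relative to wild-type. These were T (0.23), NK (0.25), erythroid (0.26), myeloid (0.43) and marginal zone and B1 cells (0.46), but not B or plasmacytoid dendritic cells. The part of these cells in the 2 flagged genes was not tested.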

How the results depend on the processing

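Jchain kept its direction in all 3 comparisons under all 21 alternatives. In floxed against wild-type its difference ran from 1.47 to 1.88 when single arrays were left out, a range that holds its values under the other alternatives. In delta against wild-type it ran from 0.39 to 0.80 without single arrays, with adjusted p of 0.129 to 0.681 over all alternatives. In delta against floxed it ran from -1.15 to -1.02 without single arrays, with adjusted p of 0.00628 to 0.468; with the 2 groups alone it was -1.07 (adjusted p = 0.0123), and 1 of the 10 genes was then called, as it was without wild-type replicate 1, against 0 under the rest. The excess of Jchain over the other 9 genes ran from 0.46 to 0.81, from -1.07 to -0.89 and from 1.43 to 1.83 without single arrays, for delta against wild-type, then delta against floxed and then floxed against wild-type.

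In floxed against wild-type the 2 calls among the 10 genes became 1 with quantile normalization again, with centring on array medians and with the T cell marker mean as a covariate, 0 with the sex pattern as a covariate, and 1 to 2 without single arrays. Sdc1 passed in 10 of 21 alternatives there and Jchain in 20 of 21, all but that with the sex pattern. Nothing is read from these counts, since this comparison led to the choice of Jchain. Over the related lists, 1 gene was called in floxed against wild-type. This became 3 with centring on array medians or the trend and robust prior, 2 with genes at a mean log2 of at least 6, 4 with array weights, the 2 groups alone or the replicate block, 0 with either covariate, and 0 to 6 without single arrays. Without single arrays the lists gave 0 to 1 calls in delta against wild-type, and 0 to 2 in delta against floxed. The cause of these moves was not tested.

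Differences near 0 changed sign. Leaving out single arrays gave -0.13 to 0.048 for Prdm1, -0.044 to 0.085 for Xbp1 and -0.084 to 0.13 for Mzb1 in delta against wild-type, and -0.11 to 0.034 for Xbp1, -0.034 to 0.0072 for Tnfrsf17 and -0.26 to 0.043 for Slamf7 in delta against floxed. Slamf7 in delta against floxed was also at 0.036 with array weights, 0.27 with the sex pattern and 0.14 with the T cell mean in the fit, Tnfrsf17 at 0.018 with the T cell mean, and Irf4 in floxed against wild-type at -0.38 with the sex pattern. In floxed against wild-type, all alternatives together gave -0.0033 to 0.35 for Xbp1, -0.045 to 0.082 for Tnfrsf17 and -0.084 to 0.12 for Pou2af1. Over all genes, calls ran from 2 to 240 in floxed against wild-type (110 as reported), 0 to 23 in delta against wild-type (15) and 1 to 10 in delta against floxed (1).

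Arrays that share a replicate number did not deviate together, with correlations of -0.08 to 0.12 over 9 pairs, and 3 of 10 arrays correlated best with their own number. With the replicate block Jchain was at 0.62 (adjusted p = 0.573) in delta against wild-type, -1.02 (adjusted p = 0.146) in delta against floxed and 1.64 in floxed against wild-type, and calls over all genes were 6, 2 and 188.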
